A study of Mus musculus with 6 samples.

Results

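The kinetochore and spindle checkpoint genes described here are 40 genes, chosen by name from a fixed list, out of 49315 genes counted in each library. Of these, 39 were found by the deposited gene name, and Sgo2a was found by its gene ID because the table lists it under the older symbol Sgol2a. The RNA came, in bulk, from all CD8+ T cells of lymph nodes that drain B16F10 tumors, a transplantable mouse melanoma (1 label field spells it B26F10). The hosts were wild-type C57Bl6/J female mice, whose age the labels do not give. Treatment began when tumors measured 50 to 100 mm3, and cells were taken on day 5. The monotherapy group (n = 3 mice) received 1 dose under the skin of HCW9218, the TGF-βRII/IL-15 complex of the series title. The combination group (n = 3 mice) received the same agent and an antibody against PD1 into the peritoneum. Both groups therefore carried a tumor and HCW9218, and every difference below is relative to HCW9218 alone. Because the libraries are bulk, a change in the number of dividing cells and a change in RNA per cell cannot be told apart.

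The kinetochore is the protein structure that joins a chromosome to the spindle in mitosis. Nucleosomes with the histone variant CENP-A mark the centromere, a constitutive network of CENP proteins sits on them throughout the cell cycle, and the KMN network assembled on top binds microtubules. The spindle checkpoint holds the cell in metaphase until every kinetochore is attached, and CD8+ T cells that expand in a draining lymph node pass through it at each division.

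All 40 genes passed the filter on low counts, with 293 to 31076 counts per gene summed over the 6 libraries. Total depth ran from 34568074 to 40101346 counts per library. The CD8 and T cell receptor genes Cd8a, Cd8b1, Cd3e, Cd3d and Trac were abundant in all 6 libraries, with summed levels of 3915 to 4785 CPM (counts scaled to library size with TMM factors) in monotherapy and 3726 to 4762 CPM in the combination. Combination replicates 2 and 3 stood apart in 1 respect, with 582 and 743 counts of the pigment cell genes Dct and Tyrp1 against at most 1 in the other libraries, and results without them are given with the marker genes. In edgeR's quasi-likelihood test over 15142 genes, a gene is said to have risen or fallen at a Benjamini-Hochberg adjusted p under 0.05. By this rule 0.951% of all genes rose and 0.132% fell.

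Of the 40 genes, 13 rose with the combination, 0 fell and 27 did not pass. The genes that rose encode outer parts of the kinetochore, the checkpoint and 1 shugoshin, namely Nuf2, Spc24, Spc25 and Knl1 of the KMN network, Ska1 and Ska3, the corona genes Cenpe, Cenpf and Kntc1, the checkpoint genes Bub1, Bub1b and Ttk, and the shugoshin Sgo1. Their log2 fold changes ran from 1.04 to 1.74. None of the 4 genes for CENP-A and its loading and none of the 11 genes of the constitutive centromere network passed, although 13 of those 15 had a log2 fold change above 0. DESeq2, and edgeR with no filter beyond 1 count, each called 1 of the 4 (Cenpa) and 2 of the 11 (Cenpi and Cenpm) higher. At an unadjusted p under 0.05, edgeR had 1 of the 4 and 5 of the 11 higher, and 24 of the 40 higher and 0 lower, against 4.61% and 3.39% of all genes. Over the 40 genes, 37 lay above 0 and the median log2 fold change was 0.69, while over all genes tested 49.9% lay above 0 with a median of -6e-04. All 3 combination libraries lay above all 3 monotherapy libraries for 25 of the 40 genes and for 7.17% of all genes, and below them for 0 of the 40 and for 7.54% of all genes.

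The count of calls depended on which libraries were in the fit. Without monotherapy replicates 1, 2 and 3, edgeR called 1, 3 and 2 of the 40 genes higher, against 0.201%, 0.311% and 0.211% of all genes. Without combination replicates 1, 2 and 3 it called 12, 4 and 17 higher, against 1.14%, 0.441% and 1.49%. The log2 fold changes of the 13 genes were no lower than 0.975 in these 6 fits and no lower than 0.76 over all settings tried. Bub1 passed in 5 of the 6 fits and missed without monotherapy replicate 1 (edgeR adjusted p = 0.0550), and Nuf2 and Cenpf passed in 4, and the other 10 in 1 to 3. With all 6 libraries, other methods called 9 of the 40 genes on library totals (0.766% of all genes), 12 in limma-voom (0.819%) and 13 with upper-quartile factors (0.971%), with DESeq2's size factors (0.977%) or with at least 10 counts in every library (1.03%). DESeq2 called 16 (1.27%), and edgeR with no filter beyond 1 count called 18 (1.04%).

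**Figure D1:**
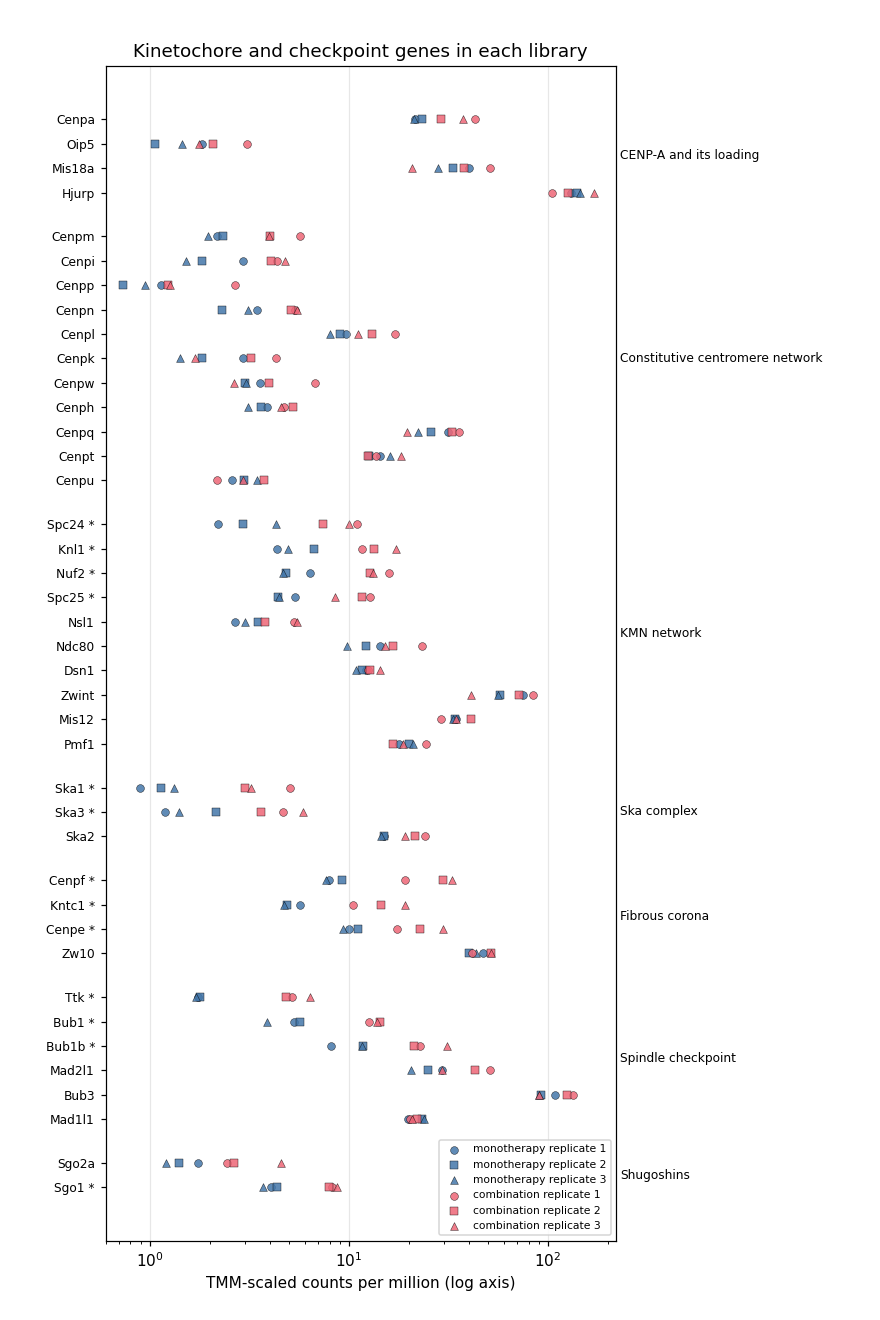
TMM-scaled CPM on a log axis for each of the 40 genes, with 1 point per library, blue for monotherapy and red for the combination, and an asterisk after genes that rose in edgeR. The red and blue points are separate in all 13 genes with an asterisk. They overlap in Hjurp, Mis18a, Oip5, Cenpk, Cenpq, Cenpt, Cenpu, Cenpw, Zwint, Mis12, Pmf1, Zw10, Bub3, Mad1l1 and Mad2l1.

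Promoter letters are shown for 4 genes that rose and hold a motif and for the 2 genes with a promoter whose log2 fold change was nearest 0, so that both kinds are seen. They were taken from RefSeq on GRCm38.p6, which lists promoters for 37 of the 40 genes, all but Spc24, Nsl1 and Ska1. Each run gives the 250 bases before the RefSeq start, and capitals mark CCAAT, the letters bound by NF-Y, or TTTGAA, the cell cycle homology region (CHR) known from promoters of late cell cycle genes, on either strand. Before the start, CCAAT stood in 22 of 37 genes (59.5%) and in 37.5% of 27025 genes with a promoter, and TTTGAA in 8 of 37 (21.6%) and in 18.3%. Over the 10032 of these genes that were tested here, the shares were 40.3% for CCAAT and 13% for TTTGAA. The E2F letters TTTCCCGC, TTTGGCGC, TTTGCCGC or TTTCGCGC stood in 3 of 37 (Cenpl, Cenpm and Dsn1), in 2.16% of all genes and in 3.94% of tested genes, and in none of the 6 promoters shown. In Kntc1 the CCAAT and CHR letters overlap.
Cenpf, chr1:189688087-189688336, minus strand: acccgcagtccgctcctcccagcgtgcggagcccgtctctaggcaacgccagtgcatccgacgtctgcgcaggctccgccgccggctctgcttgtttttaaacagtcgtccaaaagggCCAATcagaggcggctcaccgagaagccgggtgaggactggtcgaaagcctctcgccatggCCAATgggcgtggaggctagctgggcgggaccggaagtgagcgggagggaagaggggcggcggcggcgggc
Bub1, chr2:127831860-127832109, minus strand: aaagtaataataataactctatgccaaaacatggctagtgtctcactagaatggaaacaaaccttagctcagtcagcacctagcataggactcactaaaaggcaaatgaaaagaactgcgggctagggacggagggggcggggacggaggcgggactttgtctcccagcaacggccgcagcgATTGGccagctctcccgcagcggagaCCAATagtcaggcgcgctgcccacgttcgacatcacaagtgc
Ttk, chr9:83834439-83834688, plus strand: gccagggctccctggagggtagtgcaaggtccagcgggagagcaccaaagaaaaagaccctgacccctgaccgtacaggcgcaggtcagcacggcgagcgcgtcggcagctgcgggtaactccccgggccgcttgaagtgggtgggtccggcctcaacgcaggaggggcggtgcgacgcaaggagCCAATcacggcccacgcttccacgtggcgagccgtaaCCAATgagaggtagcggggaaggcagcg
Kntc1, chr5:123749476-123749725, plus strand: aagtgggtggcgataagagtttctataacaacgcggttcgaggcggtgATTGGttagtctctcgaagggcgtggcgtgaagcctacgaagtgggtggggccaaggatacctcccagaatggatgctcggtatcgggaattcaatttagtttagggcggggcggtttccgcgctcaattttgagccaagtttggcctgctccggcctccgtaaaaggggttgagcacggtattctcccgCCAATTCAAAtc
Pmf1, chr3:88410398-88410647, minus strand: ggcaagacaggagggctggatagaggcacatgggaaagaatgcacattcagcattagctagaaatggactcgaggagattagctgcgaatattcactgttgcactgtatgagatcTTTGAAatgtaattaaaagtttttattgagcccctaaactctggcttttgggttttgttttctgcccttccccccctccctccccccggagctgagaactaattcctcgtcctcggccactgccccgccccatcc
Cenpu, chr8:46551819-46552068, plus strand: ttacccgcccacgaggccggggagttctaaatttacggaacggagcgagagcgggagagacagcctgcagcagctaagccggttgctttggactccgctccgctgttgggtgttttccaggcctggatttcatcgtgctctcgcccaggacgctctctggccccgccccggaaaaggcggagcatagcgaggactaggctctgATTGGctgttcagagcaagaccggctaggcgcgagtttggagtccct

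Cenpf, Bub1, Ttk and Kntc1 each hold CCAAT at 2 places, Cenpu at 1, and Pmf1 holds TTTGAA alone; the first 4 were picked for holding a motif, so this is no comparison. A window added after the first search was seen also took in the 50 bases after the start. In that window TTTGAA stood in 17 of 37 genes (45.9%), in 20.2% of all genes and in 14.6% of tested genes. It was then present in 7 of the 11 genes with a promoter that rose, against 2 of the 11 in the first search. The median log2 fold change of genes with and without TTTGAA was 0.55 and 0.72 in the first search. In the longer window it was 0.74 and 0.55. A link between the letters and the change was not tested. In 9 genes the letters stood only after the start, 5 that rose and 4 that did not pass (Cenpa, Ndc80, Oip5 and Hjurp). The short stretches here show those 5 and, last, Hjurp.
Cenpf, chr1:189688069-189688094, minus strand: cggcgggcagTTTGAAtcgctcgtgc
Ttk, chr9:83834686-83834711, plus strand: gcggggaaatTTCAAAcgtgtttccg
Knl1, chr2:119047140-119047165, plus strand: ggcggttagaTTTGAAtacttcaggg
Bub1b, chr2:118598241-118598260, plus strand: agacgttaaaTTTGAAactt
Spc25, chr2:69206174-69206199, minus strand: cggtggagagTTTGAAattgaaagac
Hjurp, chr1:88277545-88277570, minus strand: cgtaaatactTTTGAAagaccctatt
A match describes the letters only and shows no bound site.

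None of the genes that mark or load the centromere passed the test, and their log2 fold changes ran from -0.05 to 0.74. Cenpa, the centromeric histone H3 variant (chr5:30666777-30674830), was at 21.4, 23.2 and 21.3 CPM in monotherapy replicates 1 to 3 and at 43.3, 29.2 and 37.6 CPM in the combination. The groups did not overlap, but Cenpa missed the threshold, with a log2 fold change of 0.74 ± 0.16 (SE; edgeR adjusted p = 0.0800; 0.00191 to 0.376 over all settings tried). It passed in DESeq2 (adjusted p = 0.0102) and in 4 of the other settings. Oip5, a subunit of the Mis18 complex that prepares centromeres for new CENP-A, was at 1.84, 1.07 and 1.45 CPM and at 3.07, 2.08 and 1.76 CPM. Its groups overlapped at the edge and the log2 fold change was 0.67 ± 0.33 (SE; edgeR adjusted p = 0.692). Oip5 shares 172 exon bases with Nusap1 on the opposite strand, and since strand use in counting is not given in the sources used here, those reads cannot be told apart. Mis18a, its partner, spread widely, at 40.2, 33.5 and 28.0 CPM in monotherapy and 51.0, 37.7 and 20.7 CPM in the combination. Hjurp, the chaperone that deposits CENP-A, was at 131, 140 and 145 CPM in monotherapy and 105, 127 and 170 CPM in the combination, so the combination libraries lay both below and above the monotherapy range. Its log2 fold change was -0.05 ± 0.18 (SE).

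In the constitutive centromere network 0 of 11 genes passed, 10 lay above 0, and the groups did not overlap for 6, namely Cenph, Cenpi, Cenpl, Cenpm, Cenpn and Cenpp. Cenpm (chr15:82233779-82244747) was at 2.17, 2.34 and 1.95 CPM in monotherapy and 5.71, 4.04 and 3.99 CPM in the combination. Its log2 fold change of 1.09 ± 0.24 (SE) missed the threshold in edgeR (adjusted p = 0.0878; 0.0108 to 0.395 over all settings tried). Cenpi (chrX:134308084-134362639) was at 2.92, 1.83 and 1.52 CPM in monotherapy and 4.38, 4.06 and 4.79 CPM in the combination. Cenpn, which reads the CENP-A nucleosome, was at 3.45, 2.31 and 3.11 CPM in monotherapy and 5.35, 5.12 and 5.49 CPM in the combination. Cenpi and Cenpn were separated by group in every library and had log2 fold changes of 1.08 ± 0.28 and 0.85 ± 0.22 (SE; edgeR adjusted p = 0.162 for both). Cenpi passed in DESeq2 (adjusted p = 0.0338) and with no filter beyond 1 count (edgeR adjusted p = 0.0162). Cenpu lay nearest 0, at 2.59, 2.97 and 3.45 CPM in monotherapy and 2.19, 3.75 and 2.93 CPM in the combination. Of its exon length, 26.7% is shared with Primpol on the opposite strand. For Cenpt and Cenpw, which pair in a histone-fold complex on centromeric DNA, the log2 values were 0.05 ± 0.18 and 0.48 ± 0.32 (SE). The remaining members, Cenph, Cenpk, Cenpl, Cenpp and Cenpq, ran from 0.15 to 0.87 on the log2 scale.

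The KMN network, whose Ndc80 complex grips the microtubule, had 4 of 10 genes that rose. Nuf2 (chr1:169497934-169531464), the coiled-coil partner of Ndc80, was at 6.35, 4.85 and 4.66 CPM in monotherapy and 15.9, 12.7 and 13.3 CPM in the combination. Every combination library was at least at the level of 12.7 CPM and no monotherapy library was above 6.35 CPM. The log2 fold change was 1.40 ± 0.18 (SE; edgeR adjusted p = 0.00824). Spc25 and Spc24 form the other end of the complex, which docks on the inner kinetochore. Spc25 (chr2:69193895-69206194) was at 5.38, 4.40 and 4.44 CPM in monotherapy and 12.8, 11.6 and 8.55 CPM in the combination, a log2 fold change of 1.21 ± 0.20 (SE; edgeR adjusted p = 0.0230). Spc24 (chr9:21755442-21760303) was at 2.20, 2.95 and 4.30 CPM in monotherapy and 11.0, 7.39 and 9.97 CPM in the combination, a log2 fold change of 1.58 ± 0.27 (SE; edgeR adjusted p = 0.0258). Ndc80, the fourth subunit, was separated by group as well, at 14.4, 12.2 and 9.84 CPM against 23.3, 16.8 and 15.3 CPM. Its log2 fold change was smaller, 0.60 ± 0.20 (SE; edgeR adjusted p = 0.372), and the difference from its partners was not tested.

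Per deposited exon length, Ndc80 also had the highest level of the 4 subunits. It was at 5.51 ± 1.03 FPKM (SD, n = 3) in monotherapy and 8.37 ± 1.94 in the combination. Spc25, Spc24 and Nuf2 had levels of 1.49 ± 0.174, 1.22 ± 0.413 and 0.834 ± 0.146 FPKM in monotherapy and 3.45 ± 0.691, 3.67 ± 0.724 and 2.20 ± 0.266 FPKM in the combination. The monotherapy levels of Spc25 and Spc24 did not differ beyond their spread. FPKM here stands for TMM-scaled CPM divided by the deposited exon length in kilobases. That length was 2201 bases for Ndc80, 3188 for Spc25, 2573 for Spc24 and 6341 for Nuf2. Their coding lengths were 1926, 678, 603 and 1389 bases, so the order of the 4 genes depends on the length used.

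Knl1 (chr2:119047119-119105501), the scaffold on which the checkpoint kinase Bub1 assembles, was at 4.34, 6.66 and 4.92 CPM in monotherapy and 11.7, 13.4 and 17.4 CPM in the combination. Its log2 fold change was 1.41 ± 0.22 (SE; edgeR adjusted p = 0.0169), and its groups did not overlap. Zwint, the protein that binds Knl1, did not pass, at 74.8, 57.6 and 56.2 CPM in monotherapy and 84.2, 71.4 and 41.1 CPM in the combination. The Mis12 complex links the inner and outer layers, and 0 of its 4 genes passed. Pmf1, with the log2 fold change nearest 0 in this network (0.02 ± 0.17, SE), was at 17.9, 20.1 and 20.99 CPM in monotherapy and 24.5, 16.6 and 18.8 CPM in the combination. Mis12, Dsn1 and Nsl1 had log2 fold changes of 0.04 ± 0.15, 0.19 ± 0.14 and 0.66 ± 0.23 (SE), and the groups did not overlap for Dsn1 and Nsl1.

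The Ska complex, which keeps kinetochores on shrinking microtubule ends, had 2 of 3 genes that rose. Ska1 was at 0.891, 1.14 and 1.33 CPM in monotherapy and 5.07, 3.01 and 3.24 CPM in the combination. This was the largest log2 fold change of the 40 genes, 1.74 ± 0.31 (SE; edgeR adjusted p = 0.0283). Ska3 (chr14:57806561-57826163) was at 1.20, 2.16 and 1.40 CPM in monotherapy and 4.68, 3.64 and 5.85 CPM in the combination, a log2 fold change of 1.57 ± 0.30 (SE; edgeR adjusted p = 0.0432). Ska3 was called in 1 of the 6 fits with a library left out, that without combination replicate 3. Ska2 was separated by group at a higher level, 15.1, 14.9 and 14.6 CPM against 24.0, 21.5 and 19.2 CPM, and did not pass (log2 fold change 0.54 ± 0.14, SE; edgeR adjusted p = 0.162).

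At the fibrous corona, the outermost layer that captures microtubules and recruits checkpoint proteins, 3 of 4 genes rose. Cenpf (chr1:189640606-189688086) was at 7.94, 9.20 and 7.72 CPM in monotherapy and 19.1, 29.7 and 33.0 CPM in the combination. Its log2 fold change of 1.72 ± 0.21 (SE) had the smallest adjusted p of the 40 genes in edgeR (0.00570). Kntc1 (chr5:123749716-123821593), which encodes the Rod subunit of the complex that brings dynein to kinetochores, was at 5.71, 4.90 and 4.73 CPM in monotherapy and 10.5, 14.5 and 19.1 CPM in the combination. The motor Cenpe (chr3:135212537-135273611), which carries chromosomes toward the spindle equator, was at 10.03, 11.2 and 9.39 CPM in monotherapy and 17.4, 22.7 and 29.6 CPM in the combination. Kntc1 and Cenpe had log2 fold changes of 1.53 ± 0.23 and 1.19 ± 0.20 (SE; edgeR adjusted p = 0.0147 and 0.0238). With Dct and Tyrp1 as a covariate, the fit compares mainly combination replicate 1 with monotherapy, since both were counted almost only in combination replicates 2 and 3. In that fit Cenpe was at 0.76 and Kntc1 at 1.03 on the log2 scale, and neither passed (edgeR adjusted p = 0.0883 and 0.0523), which left Cenpf (0.0146). In each of these 3 genes combination replicate 1 was the lowest combination library and replicate 3 the highest. Zw10, which works in the same complex as Kntc1 and also in membrane traffic in interphase, was at 47.2, 40.3 and 43.4 CPM in monotherapy and 41.8, 51.7 and 52.1 CPM in the combination, with overlapping groups.

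Among the 6 spindle checkpoint genes, the 3 that encode kinases or a kinase-related protein rose. Bub1 (chr2:127801122-127831865), a kinase that also marks centromeric chromatin for shugoshin, was at 5.29, 5.67 and 3.88 CPM in monotherapy and 12.6, 14.3 and 13.8 CPM in the combination. The 3 combination libraries were close together and each stood above the highest monotherapy library, for a log2 fold change of 1.46 ± 0.19 (SE; edgeR adjusted p = 0.00702). Ttk (chr9:83834689-83872389), the kinase MPS1 that starts checkpoint signalling, was at 1.75, 1.78 and 1.71 CPM in monotherapy and 5.20, 4.85 and 6.40 CPM in the combination. The log2 fold change was 1.65 ± 0.22 (SE; edgeR adjusted p = 0.00838). Bub1b (chr2:118598211-118641591), which encodes BUBR1, part of the complex that inhibits the anaphase-promoting complex, was at 8.16, 11.7 and 11.7 CPM in monotherapy and 22.7, 21.2 and 31.1 CPM in the combination (log2 fold change 1.25 ± 0.20, SE; edgeR adjusted p = 0.0212).

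The non-kinase checkpoint genes did not pass. Mad2l1, which encodes MAD2, the diffusible inhibitor that unattached kinetochores produce, was at 29.5, 24.9 and 20.4 CPM in monotherapy and 51.2, 43.1 and 29.3 CPM in the combination. Combination replicate 3 lay just under the highest monotherapy library, and the log2 fold change was 0.72 ± 0.21 (SE; edgeR adjusted p = 0.260; 0.00251 to 0.767 over all settings tried). Mad1l1, the receptor for MAD2 at the kinetochore and the pore, was at 19.9, 23.2 and 23.9 CPM in monotherapy and 20.3, 22.1 and 20.8 CPM in the combination, a log2 fold change of -0.08 ± 0.13 (SE). Bub3, which brings Bub1 and BUBR1 to the kinetochore, was at 108, 92.0 and 90.5 CPM and at 134, 126 and 90.0 CPM, with overlapping groups and a log2 fold change of 0.26 ± 0.17 (SE).

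The shugoshins protect centromeric cohesin until anaphase. Sgo1 (chr17:53674786-53689333) was at 4.07, 4.37 and 3.69 CPM in monotherapy and 8.27, 7.94 and 8.73 CPM in the combination, a log2 fold change of 1.04 ± 0.17 (SE; edgeR adjusted p = 0.0232). Sgo2a was at 1.75, 1.40 and 1.21 CPM in monotherapy and 2.43, 2.66 and 4.56 CPM in the combination. Both genes were separated by group, and Sgo2a did not pass (log2 fold change 1.15 ± 0.32, SE; edgeR adjusted p = 0.212). Of the exon length of Sgo2a, 35.0% is shared with Kctd18 on the opposite strand, and Kctd18 had 7847 counts over the 6 libraries against 525 for Sgo2a.

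**Figure D2:**
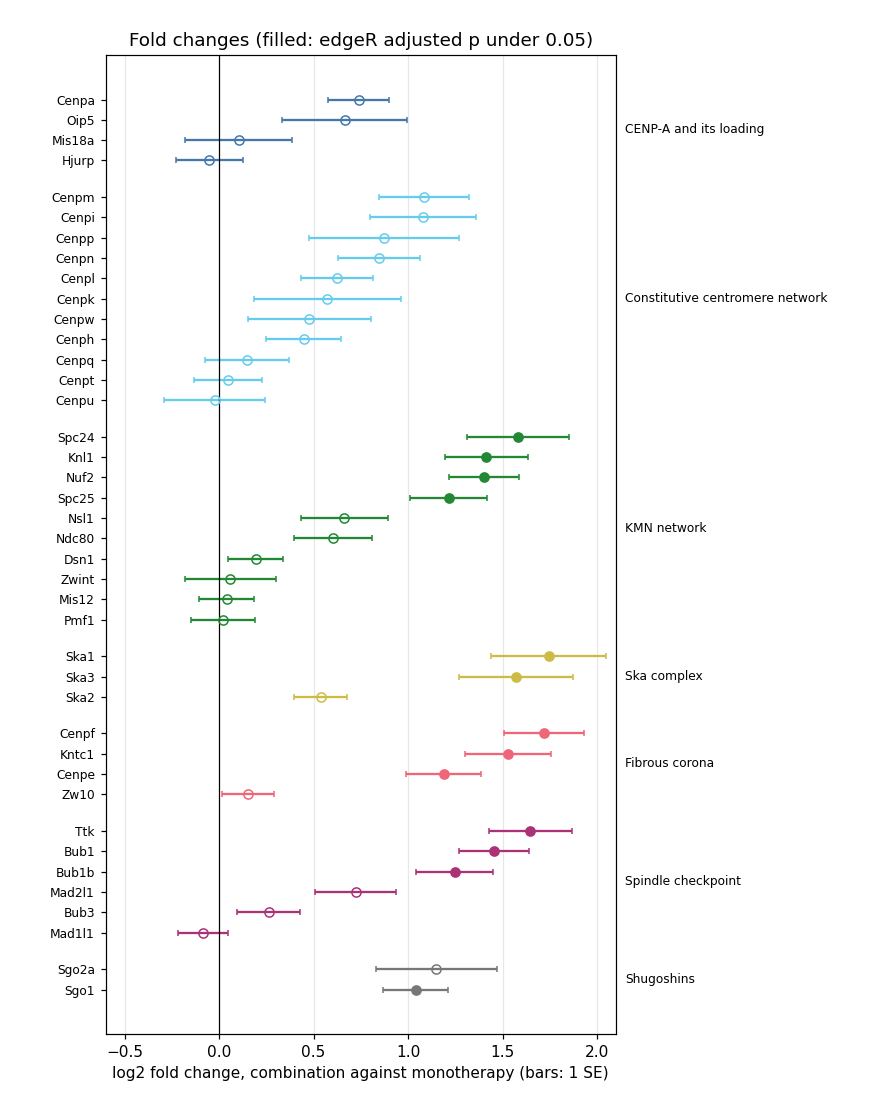
Log2 fold change of each of the 40 genes with bars of 1 SE, ordered within 7 role groups, filled where edgeR's adjusted p was under 0.05. Filled points are found in the KMN network, the Ska complex, the corona, the checkpoint and the shugoshins, and none in the CENP-A and constitutive centromere groups.

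The 13 genes that rose had levels per deposited exon length between 0.356 and 2.46 FPKM in monotherapy. The cut of 2.46 FPKM used here is the highest level among them, so it was taken from the calls themselves. A further 15 genes lay above 2.46 FPKM, and their log2 fold changes ran from -0.08 to 0.74 with a median of 0.15. They include Hjurp, Zwint, Bub3, Zw10, Mis12, Mis18a and Cenpq, at 10.2 to 16.7 FPKM. Another 12 genes at or below 2.46 FPKM did not pass, with a median of 0.66. Across the 40 genes Spearman's rho between monotherapy FPKM and log2 fold change was -0.706, given as a description, since the genes share the same 6 libraries and the monotherapy level enters both quantities.

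**Figure D3:**
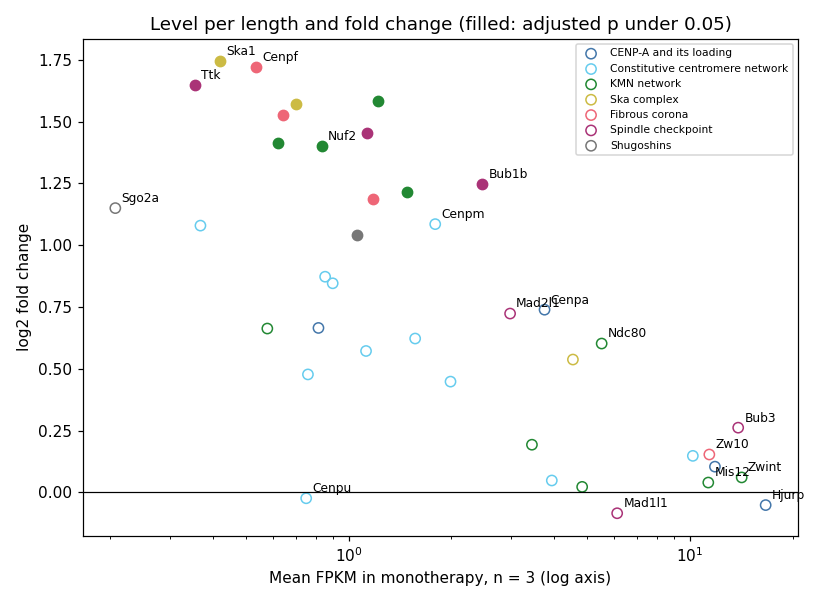
Mean monotherapy FPKM on a log axis against log2 fold change for the 40 genes, colored by role and filled where the gene rose. The highest of the 13 filled points lies at 2.46 FPKM, and the genes at 10.2 FPKM or more lie between -0.05 and 0.26.

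The combination libraries differed among themselves in a way that followed coding length. Of the 40 genes, combination replicate 1 was the highest of the 6 libraries for 19 and replicate 3 for 16, against 26.4% and 24.1% of all genes tested. The median coding length was 1362 bases over the 12148 tested genes that have one. Among 24 of the 40 genes under that length, 18 were higher in replicate 1 than in replicate 3. Among 16 longer genes, 14 were higher in replicate 3. Cenpw, with 258 coding bases, was at 6.78, 3.98 and 2.64 CPM in combination replicates 1, 2 and 3, and Cenpf, with 8991 coding bases, went the other way. The trend was general among the tested genes with a coding length. The 2435 genes of at most 717 coding bases lay at a median deviation (log2) from the gene's mean over libraries of 0.30 in combination replicate 1 and -0.27 in replicate 3. The 2431 genes of at least 2469 bases lay at -0.24 and 0.16. Combination replicate 2 lay between, at 0.05 for the short and 0.007 for the long genes. In monotherapy replicates 1 to 3 the medians were 0.09, -0.05 and -0.07 for the short genes. For the long genes they were -0.03, 0.06 and 0.08. The monotherapy medians were thus closer together but in the same order by replicate number. Across genes, Spearman's rho between coding length and the log2 ratio of replicate 3 to replicate 1 was 0.725 over the 40 genes and 0.515 over 12148 genes.

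With a smooth trend on coding length removed from each library, a setting added after the data were seen, 14 of the 40 genes rose, against 1.4% of all genes. The 13 genes above were among them, and Mad2l1 was added (log2 fold change 0.66, edgeR adjusted p = 0.0429). Cenpf then had a log2 fold change of 1.86 ± 0.13 (SE), and Cenpm stayed just short of the threshold (edgeR adjusted p = 0.0513).

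**Figure D4:**
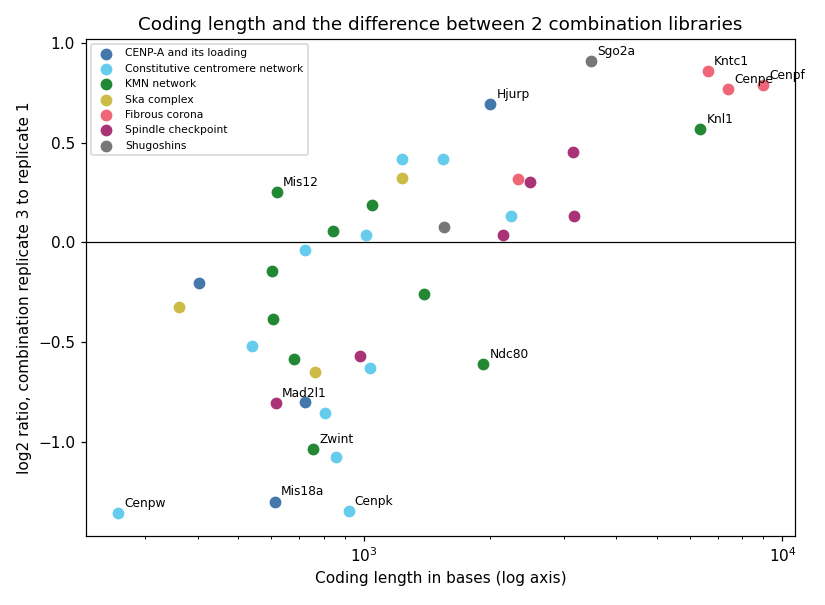
Coding length in bases on a log axis against the log2 ratio of combination replicate 3 to combination replicate 1 for the 40 genes. Short genes such as Cenpw and Mis18a lie below 0, and the longest, Kntc1, Cenpe and Cenpf, lie above it.

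Other genes of the pathway, 22 genes outside the 40, were read from a separate list, of which 21 were found and 20 tested. Of these, 6 rose, 0 fell and 14 did not pass, with a median log2 fold change of 0.62. The chromosomal passenger genes Birc5 and Aurkb, whose kinase corrects wrong attachments, had log2 fold changes of 1.91 ± 0.21 and 1.52 ± 0.25 (SE; edgeR adjusted p = 0.00390 and 0.0230). Plk1 had a log2 fold change of 1.30 ± 0.20 (SE; edgeR adjusted p = 0.0174), and Cdca8 and Cdc20, the latter the checkpoint's target, also rose and were named after their values were seen. Among genes of dividing cells, Mki67 was at 47.0, 56.6 and 46.9 CPM in monotherapy and 88.7, 142 and 210 CPM in the combination (edgeR adjusted p = 0.0274). Pcna, a replication gene, had a log2 fold change of 0.15 ± 0.25 (SE) and did not pass.

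Summed over all 40 genes, the level was 714.5, 671 and 653 CPM in monotherapy replicates 1 to 3 and 914, 881 and 852 CPM in the combination, so the groups did not overlap. The CENP-A group, most of it Hjurp, summed to 196 ± 1.56 CPM in monotherapy and 209.5 ± 18.3 in the combination (SD, n = 3 each). The constitutive centromere network summed to 69.8 ± 7.23 and 89.4 ± 13.0 CPM (ratio 1.28), the KMN network to 162 ± 11.5 and 205.5 ± 25.9 CPM (1.27) and the checkpoint genes to 161.5 ± 10.6 and 223 ± 28.0 CPM (1.38). The Ska complex summed to 17.6 ± 0.587 and 30.1 ± 3.22 CPM, the corona to 67.2 ± 3.20 and 114 ± 22.9 CPM, and the shugoshins to 5.495 ± 0.518 and 11.5 ± 1.52 CPM. These sums are descriptions, with no test.

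Markers of other cells were read beside these values. Dct and Tyrp1, pigment enzymes of melanocytes and melanoma cells, had 0 counts in combination replicate 1 and together 582 and 743 counts in replicates 2 and 3, and 1, 0 and 0 in monotherapy. The 6 melanocyte genes summed to 20.9 to 27.1 CPM in monotherapy and 29.1 to 52.8 CPM in the combination, most of it Pmel, which was the 1 of them tested and did not pass. Dct, Tyrp1, Tyr, Mlana and Sox10 were all at 0 in combination replicate 1. In combination replicate 1, the library without Dct or Tyrp1, 34 of the 40 genes lay above all 3 monotherapy libraries, against 35.1% of all genes tested. Short genes in general lay high in this library and long genes low, and 24 of the 40 genes are shorter than the median coding length. The part of this in the 34 was not tested. A fit with this library as the single combination sample, assumed to vary like the others, called 21 of the 40 genes higher, against 5.01% of all genes, with a median log2 fold change of 0.95. The fit with Dct and Tyrp1 as a covariate also compares mainly this library with monotherapy, because the covariate is near 0 in all others but combination replicates 2 and 3. In it 10 of 40 were higher, against 0.885% of all genes, and these were 7 of the 13 genes above with Cenpa, Cenpl and Cenpm. Knl1, Ska3, Cenpe, Kntc1, Bub1b and Sgo1 did not pass in that fit.

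Of the 4 NK cell genes 1 rose, Klre1, and their sum was 6.13 to 7.58 CPM in monotherapy and 11.6 to 20.7 CPM in the combination, with Ncr1 at 2 to 13 counts per library; their part in the result was not tested. The 5 B cell genes summed to 33.6 to 47.2 CPM and 23.5 to 51.6 CPM, with 0 of 5 past the test. The largest part of this sum was Cd79b, at 24.15, 22.9 and 20.2 CPM in monotherapy and 25.4, 29.1 and 16.4 CPM in the combination. With that sum as a covariate 4 of the 40 genes were higher (Nuf2, Cenpf, Bub1 and Ttk), against 0.39% of all genes. The germinal centre and plasma cell lists had 0 of 2 and 0 of 3 tested genes past the test, with medians below 0. The CD4 T cell, myeloid, stromal and erythroid lists had 0 of 3, 0 of 3, 0 of 3 and 0 of 2 tested genes past it.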

How the data were processed

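Bulk RNA was measured in 6 libraries, 3 per group. The submitters' processing notes name STAR 2.5.2b, Subread 1.5.2, featureCounts and DESeq2, with no roles. Not given in the sources used here were strand use, annotation and build. Values as deposited are raw counts, whole reads for each of 49315 genes. In all 6 libraries the separate files equalled the table of the whole series. That table has 6 further columns that fit no sample; they, and the normalized and rlog tables, stayed out. Chromosome, start and end were identical to GENCODE M21 (GRCm38) for 36 of the 40 genes; positions are printed as deposited.

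The fit used edgeR 4.0.16 under R 4.3.3: filterByExpr by group, TMM (factors 0.901 to 1.12), the quasi-likelihood F-test without covariates, and Benjamini-Hochberg adjustment over 15142 genes. SE is the size of the unshrunken coefficient over the root of F. CPM are TMM-scaled. The procedure was tested on simulated counts. Alternatives were other scalings and filters, DESeq2 1.42.0, limma-voom (limma 3.58.1), marker covariates, a replicate block and left-out libraries. The correction for coding length (longest in GENCODE per gene, lowess span 0.5) was added after the data were seen. Values in every library are given per role group for up to 3 genes with the smallest p and the one nearest 0, and for others a comparison turned on. Single results for some listed genes are not reported here. The members and lists were chosen with earlier results of these data known. P-values measure only the spread between these libraries. No 2 libraries agreed within counting noise (chi-square per gene 9.1 to 256).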

Additional observations from a re-analysis of the deposited data

How the results depend on the processing

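The 13 genes called higher became 9 to 18 under the other scalings, filters and tools and with the coding-length correction. The count was 4 with the B cell sum as a covariate, 1 to 17 with 1 library left out, and 21 without combination replicates 2 and 3. The median log2 fold change ran from 0.52 to 0.88 with 1 library left out. It was 0.954 with Dct and Tyrp1 as a covariate and 0.953 without combination replicates 2 and 3. Both of these fits compare mainly combination replicate 1 with monotherapy, so their likeness follows from the design. With the replicate number as a block 16 of the 40 genes were higher, against 1.53% of all genes, adding Cenpa, Cenpm and Mad2l1. Same-numbered libraries correlated at 0.145, -0.055 and 0.279 in their deviations from group means, and since 1 of the 3 was under 0.1 the numbers were not taken to pair the mice. Monotherapy replicates 1 and 3 each correlated best with their own number, and replicate 2 with combination replicate 1 (0.076). The trend on coding length had the same order by replicate number in both groups. For these changes the cause was not tested.

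Over all genes, edgeR called 144 higher and 20 lower. It called 231 and 57 with the block, 340 and 113 with no filter beyond 1 count, 134 and 123 with the Dct and Tyrp1 covariate, 59 and 5 with the B cell covariate, 834 and 628 without combination replicates 2 and 3, 212 and 39 with the coding-length correction, and 32 to 233 and 2 to 49 with 1 library left out. DESeq2 called 258 and 59.

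Signs turned in 8 genes near 0, none of them called. Pmf1 was at -0.008 on library totals and -0.0274 with the coding-length correction, where Zwint was at -7e-04. With Dct and Tyrp1 as a covariate Cenpt, Mis12 and Zw10 were at -0.087, -0.209 and -0.0619, and without combination replicates 2 and 3, which is nearly the same comparison, at -0.075, -0.227 and -0.0695. With the B cell covariate Cenpt, Cenpu and Pmf1 were at -0.0728, 0.0603 and -0.0261. With 1 library left out the log2 fold change ran from -0.260 to 0.119 for Hjurp, -0.199 to 0.387 for Mis18a, -0.133 to 0.177 for Cenpt, -0.212 to 0.168 for Cenpu, -0.144 to 0.308 for Zwint, -0.0711 to 0.173 for Mis12 and -0.129 to 0.152 for Pmf1. Counting error is largest in genes with few counts, such as Cenpp, with 293 counts over all libraries.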
